A study of Homo sapiens with 11 samples.

Results

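Bevacizumab alone was compared with vehicle in human melanoma tumours grown from A375 cells in mice. The comparison takes every array the labels place in the bevacizumab arm and every array they place in the vehicle arm, which gave 6 of the 11 arrays of the series, 3 in each arm. A375 is an established human melanoma cell line that carries an activating BRAF mutation. The cells were implanted under the skin of female athymic CD1 mice that were 6 weeks old, and treatment began once the tumours had grown. Bevacizumab was injected into the peritoneum in saline at 10 mg/kg, 3 times a week. Vehicle was methylcellulose, as the labels name it. Both arms were sampled after 12 days, and RNA of whole tumours was hybridised to Illumina HumanHT-12 v4 expression arrays, which carry probes for human transcripts. The other 5 arrays came from tumours given the BRAF inhibitor PLX4720, alone on 3 arrays or with bevacizumab on 2 arrays. Whether vehicle mice also received saline injections is not clear from the sources used here, and if they did not, the drug and its route and carrier cannot be told apart. The athymic host has no mature T cells of its own, and the blood vessels, fibroblasts and leukocytes of a xenograft come from the mouse.

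Bevacizumab is an antibody that binds VEGFA, the main growth signal of blood vessels, and keeps it from its receptors on endothelial cells. VEGFA is made by tumour cells, and more of it is made when oxygen is short, through the transcription factor HIF1. Tumours cut off from new vessels can become short of oxygen, and the genes that low oxygen induces, among them those of glucose uptake and glycolysis, are therefore often read beside the VEGF ligands in tumours given the antibody.

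No gene passed the test between bevacizumab and vehicle tumours. Of 14886 genes tested, 0 were higher and 0 were lower with an adjusted p below 0.05 (limma with Benjamini-Hochberg adjustment), which is 0% of genes in either direction, and the lowest adjusted p was 0.155, for COL1A2. An unadjusted p below 0.05 was reached by 715 genes, where 744 would be reached by chance at that threshold if no gene differed and genes were independent. These genes split into 316 that were higher (2.12% of genes tested) and 399 that were lower (2.68%). The limits stated in the methods, a log2 difference of at least 1 with an unadjusted p below 0.01, were passed by 46 genes, 21 of them higher (0.141%) and 25 lower (0.168%). The arrays of the 2 arms did not overlap in 717 genes that were higher (4.82%) and in 897 that were lower (6.03%). Separation of 3 arrays from 3 also arises by chance, and more readily where an array is left out. The 95% interval of the difference lay between -1 and 1 on the log2 scale for 11547 genes (77.6%), so that for these a doubling or halving fell outside the interval. Levels below are log2 intensities after background correction and quantile normalization, and every difference is bevacizumab minus vehicle unless PLX4720 is named.

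The 6 arrays were of similar quality by detection, but 1 bevacizumab array stood apart. Between 20158 and 21760 probes were detected on the bevacizumab arrays and between 21454 and 21952 on the vehicle arrays. Bevacizumab 1 lay at -61.4 on the first principal component of the 6 arrays, which held 48.4% of the variance, against 27.2 and 19.2 for bevacizumab 2 and 3 and -0.97 to 12.6 for the vehicle arrays. It lay more than 1 log2 unit from the mean of the rest of its arm in 2267 genes, against 627 and 425 genes for the other bevacizumab arrays and 159 to 205 for the vehicle arrays. The median SD within an arm was 0.34 among bevacizumab arrays and 0.19 among vehicle arrays. Each array was also weighted by its agreement with its arm (limma array weights), with weights estimated from these same 6 arrays. Bevacizumab 1, 2 and 3 were given weights of 0.156, 0.774 and 4.21, so that the weighted arm rests mostly on bevacizumab 3. With these weights 304 genes passed an adjusted p of 0.05, 187 of them higher and 117 lower. Without bevacizumab 1 and without weights, 0 genes passed (lowest adjusted p 0.0801), and 134 genes higher and 74 lower were past the limits of the methods.

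**Figure D1:**
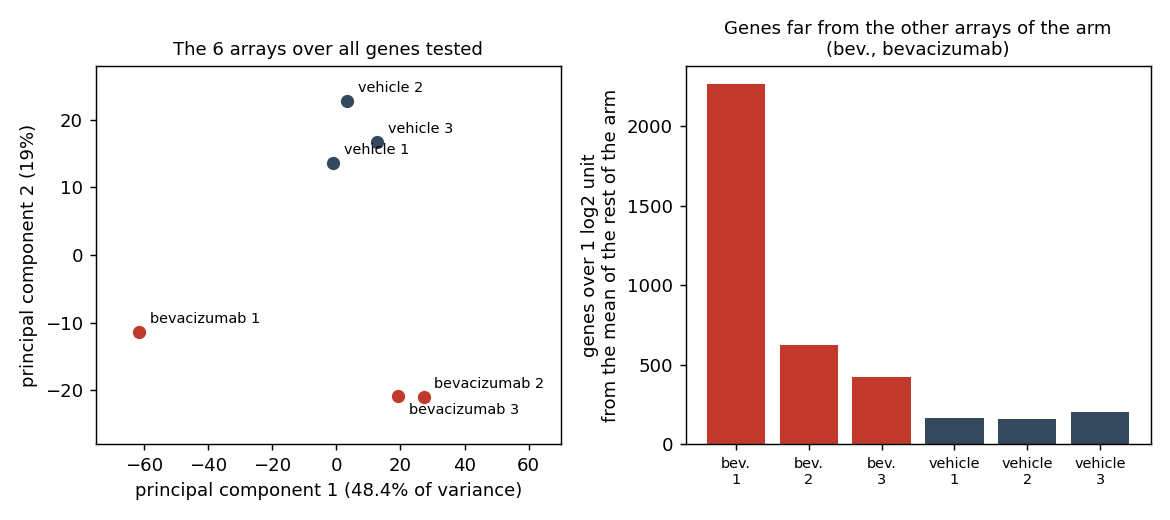
The left panel places the 6 arrays on their first and second principal components, which hold 48.4% and 19% of the variance, and the right panel gives for each array the number of genes that lay more than 1 log2 unit from the mean of the rest of its arm. Bevacizumab 1 lies alone at -61.4 on the first component and has 2267 such genes, against 627 and 425 on the other bevacizumab arrays and 159 to 205 on the vehicle arrays.

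The melanoma origin of the RNA was read from 24 melanocyte lineage genes, of which 16 were tested. SOX10 and MITF, transcription factors of the lineage, were detected on all 6 arrays. MLANA, a melanosome protein, and TYR and TYRP1, enzymes of pigment synthesis, were not detected on any array, and DCT had no probe named for it. SOX10 averaged 11.13 with bevacizumab and 11.23 with vehicle, and MITF averaged 6.54 with bevacizumab and 7.10 with vehicle. Neither passed the test.

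VEGFA, the target of the antibody, did not separate the arms at the brighter of its 2 probes. Its log2 intensity was 9.45, 9.98 and 9.70 on the bevacizumab arrays and 9.63, 9.88 and 9.84 on the vehicle arrays. The arms overlapped fully, and the difference was -0.07 ± 0.21 (SE) with a 95% interval of -0.56 to 0.41. The dimmer VEGFA probe read 7.96, 7.85 and 7.95 with bevacizumab and 8.12, 8.22 and 8.01 with vehicle, which did not overlap and differed by -0.20. VEGFB, a ligand of the receptor FLT1, differed by -0.04 (95% interval -0.51 to 0.42) and was among the brighter probes, with means of 13.71 under bevacizumab and 13.75 under vehicle. VEGFC, a growth signal of lymphatic vessels, differed by -0.16 (-0.66 to 0.33). PGF, the placental growth factor, differed by -0.13, and its interval was wider (-0.95 to 0.70), and bevacizumab 1 read 9.53 while bevacizumab 2 and 3 read 8.51 and 8.21. VEGFD was below background on all 6 arrays. The VEGF receptors FLT1, KDR and FLT4 were not detected on any of the 11 arrays and were not tested. The median of the 5 ligands was -0.07, against -0.02 over all genes tested.

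The co-receptors of VEGF lay lower in bevacizumab tumours without passing the test. NRP2, neuropilin 2, read 6.81, 6.87 and 6.99 with bevacizumab and 7.35, 7.54 and 7.65 with vehicle. The arms did not overlap, and NRP2 was 0.62 lower (SE 0.19), with a limma adjusted p of 0.978. Its other 3 probes differed by -0.10, -0.06 and -0.34 with overlapping arms, so that 1 of 4 probes separated the arms. NRP1, neuropilin 1, read 10.28, 10.99 and 10.63 with bevacizumab and 11.48, 10.92 and 11.25 with vehicle. The arms overlapped, and the difference was -0.58 ± 0.25 at this probe and -0.20 at another. Of 34 other angiogenic ligands tested, 2 were higher and 2 lower without overlap (5.88% each, against 4.82% and 6.03% of all genes). Their median was -0.09. Examples are HBEGF, a ligand of the EGF receptor (0.41 ± 0.21), and EFNB2, an ephrin of arterial vessels (-0.53). ANGPTL4, a secreted protein that low oxygen induces, was bright in both arms and averaged 13.34 with bevacizumab and 13.24 with vehicle.

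Genes induced by low oxygen had a median difference near that of all genes, though more of them were higher than lower without overlap. Of 45 genes listed, 40 were tested, and their median difference was 0.01, against -0.02 over all genes. Without overlap, 5 of the 40 were higher (12.5%, against 4.82% of all genes) and 1 was lower (2.5%, against 6.03%). When bevacizumab 1 was left out, 11 were higher (27.5%, against 14.2%) and 3 lower (7.5%, against 17.1%), with a median of 0.11. ADM, which encodes the vasodilator adrenomedullin, read 13.59, 13.72 and 13.77 with bevacizumab and 13.51, 13.64 and 13.88 with vehicle. NDRG1, a stress-induced gene, read 14.82, 14.91 and 15 with bevacizumab and 14.68, 14.95 and 15.06 with vehicle. Both overlapped fully and both differed by 0.01, with 95% intervals of -0.43 to 0.46 for ADM and -0.44 to 0.46 for NDRG1. The mitophagy gene BNIP3 (0.04), the glycolytic regulator PFKFB4 (0.06) and the glucose transporter SLC2A1 (0.24, 95% interval -0.23 to 0.70) were also unseparated. HILPDA, a lipid droplet protein, differed by 0.33 (95% interval -0.31 to 0.96).

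The 5 low-oxygen genes that were higher without overlap were FAM162A, INSIG2, ANG, ANKRD37 and ANKZF1. FAM162A, a mitochondrial protein, read 9.18, 8.74 and 9.27 with bevacizumab and 8.03, 7.45 and 8.41 with vehicle. Each bevacizumab array was above each vehicle array, and FAM162A was the single gene of this list past the limits of the methods, at 1.10 ± 0.28 (95% interval 0.45 to 1.75, limma adjusted p 0.978). INSIG2, which holds back cholesterol synthesis, was 0.50 higher, with 9.78, 10.30 and 10.25 under bevacizumab and 9.43, 9.69 and 9.71 under vehicle. ANG, the secreted ribonuclease angiogenin, and ANKRD37 were each 0.45 higher, and ANKZF1, a factor of ribosome quality control, was 0.41 higher. On ANG and ANKRD37, bevacizumab 1 was the highest array (9.95 and 12.83), with the other bevacizumab arrays at 9.51 and 9.50 for ANG and at 12.13 and 12.19 for ANKRD37, and the highest vehicle arrays at 9.33 and 12.07. HIF1A, which encodes the oxygen-regulated subunit of HIF1, was lower by 0.93 ± 0.26 in the probe used, with 8.09, 9.0 and 8.70 under bevacizumab and 9.33, 9.68 and 9.57 under vehicle. Its arms did not overlap there, while its other 2 probes differed by -0.34 and -0.19.

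The promoters of 4 of these genes are shown because HIF1 binds DNA at the core ACGTG, and the list was chosen for genes that low oxygen induces. Each sequence is RefSeq's on the plus strand of GRCh38.p14, from 250 bases before the first listed start of the gene to 50 bases after it, and capitals mark ACGTG or its reverse complement CACGT, which overlap where the letters CACGTG occur. The regions are chr3:122383932-122384231 for FAM162A, chr4:185396591-185396890 for ANKRD37, chr14:20683927-20684226 for ANG and chr2:118088221-118088520 for INSIG2.
FAM162A: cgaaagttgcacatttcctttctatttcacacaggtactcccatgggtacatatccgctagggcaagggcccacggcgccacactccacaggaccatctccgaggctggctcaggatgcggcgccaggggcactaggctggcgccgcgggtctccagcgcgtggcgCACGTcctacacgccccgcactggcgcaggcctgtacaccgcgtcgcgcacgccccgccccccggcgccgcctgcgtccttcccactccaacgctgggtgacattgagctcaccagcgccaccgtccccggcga
ANKRD37: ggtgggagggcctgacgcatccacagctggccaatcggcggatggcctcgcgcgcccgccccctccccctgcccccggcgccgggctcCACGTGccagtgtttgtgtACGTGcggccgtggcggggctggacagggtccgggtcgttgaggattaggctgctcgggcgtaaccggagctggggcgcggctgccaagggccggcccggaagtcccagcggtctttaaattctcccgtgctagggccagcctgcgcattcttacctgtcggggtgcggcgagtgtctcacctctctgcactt
ANG: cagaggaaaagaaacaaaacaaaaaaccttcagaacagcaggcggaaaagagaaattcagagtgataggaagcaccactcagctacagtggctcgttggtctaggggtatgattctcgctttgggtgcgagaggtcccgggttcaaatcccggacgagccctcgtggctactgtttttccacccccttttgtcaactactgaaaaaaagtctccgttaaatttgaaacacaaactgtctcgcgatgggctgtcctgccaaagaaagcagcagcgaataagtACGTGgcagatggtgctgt
INSIG2: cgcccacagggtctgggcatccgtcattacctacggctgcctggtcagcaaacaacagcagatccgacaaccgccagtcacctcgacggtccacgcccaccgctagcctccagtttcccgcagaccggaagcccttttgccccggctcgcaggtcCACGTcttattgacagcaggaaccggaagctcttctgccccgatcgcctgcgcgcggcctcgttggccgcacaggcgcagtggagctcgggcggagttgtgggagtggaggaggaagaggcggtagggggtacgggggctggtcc
FAM162A, ANG and INSIG2 hold 1 match each and ANKRD37 holds 3. The motif is common: 7518 of 35116 promoters of the same length held it on either strand (21.4%), and so did 20 of the 34 promoters of listed low-oxygen genes that were available (58.8%), most of which belong to genes that did not separate the arms here. A match describes these letters only.

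Many of the same low-oxygen genes differed between the 2 drugs given alone. Set directly against PLX4720, in a limma fit over all 11 arrays, bevacizumab tumours had 18 of the 40 genes higher and 0 lower at an adjusted p below 0.05 (background 1.04% higher and 2.08% lower), with a median difference of 1.21. ADM was 3.34 ± 0.31 higher than under PLX4720, NDRG1 3.01 ± 0.34, HILPDA 2.80 ± 0.28 and BNIP3 2.04 ± 0.26. VEGFA was 1.72 ± 0.26 higher. These values and those against vehicle use the same bevacizumab arrays. The PLX4720 arrays were more widely spread, with a median SD of 0.45 against 0.34 among bevacizumab arrays. Each lay more than 1 log2 unit from the mean of the rest of its arm in 1983 to 3084 genes. On genes of RNA handling stress PLX4720 2 had an array median of 1.1, against -0.38 and -0.39 on PLX4720 1 and 3. What this spread does to the comparisons with PLX4720, here and below, was not tested. How many genes pass in this comparison depends on the processing: 465 genes in all passed here, 70 when the fit held the 6 compared arrays alone, and 64 when background correction and normalization were restricted to those arrays as well.

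**Figure D2:**
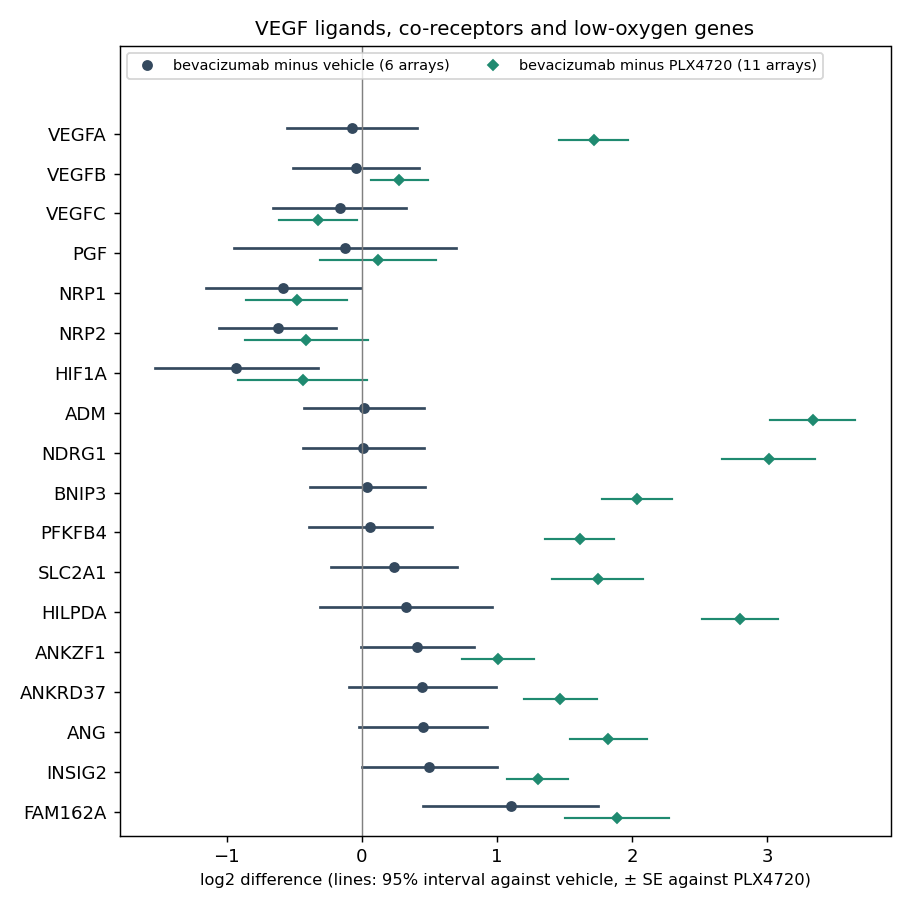
VEGF ligands, co-receptors and genes induced by low oxygen, with the log2 difference on the horizontal axis: circles are bevacizumab minus vehicle with the 95% interval, diamonds bevacizumab minus PLX4720 ± SE. The circles of VEGFA, ADM and NDRG1 lie at -0.07, 0.01 and 0.01, while their diamonds lie at 1.72, 3.34 and 3.01.

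Metabolic lists had medians close to that of all genes. Without overlap, 4.82% of all genes were higher and 6.03% lower. The 20 glycolysis genes had a median of 0.06 with 1 gene higher and 1 lower without overlap, and the 32 genes of oxidative phosphorylation a median of -0.02 with 1 higher and 2 lower. Against PLX4720, 6 of the 20 glycolysis genes were higher and 0 lower (1.04% and 2.08% of all genes were), with a median of 0.75. Cholesterol synthesis had 3 of 19 genes higher without overlap (15.8%) and 0 lower, with a median of 0.12. FDPS, which makes farnesyl pyrophosphate in the mevalonate pathway, read 10.09, 10.13 and 10.15 with bevacizumab and 9.47, 9.16 and 9.53 with vehicle. The arms were separated, and FDPS was 0.73 ± 0.19 higher (95% interval 0.29 to 1.17), under the size limit of the methods. IDI1 (0.27) and NSDHL (0.12), of the same pathway, were the other 2. Without bevacizumab 1, 9 of the 19 genes were higher without overlap (47.4%), where 14.2% of all genes were.

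Collagens and matrix glycoproteins lay lower in bevacizumab tumours without passing the test, and they held the gene nearest to the threshold. In the other matrix lists the counts without overlap did not lean this way. Of 34 matrix proteases and crosslinkers 2 were higher and 2 lower (5.88% each, against 4.82% and 6.03% of all genes). Of 18 integrins 1 was higher and 0 lower. The medians were -0.14 for proteases and crosslinkers and -0.08 for integrins, against -0.18 for matrix glycoproteins. Without bevacizumab 1, 3 of the 34 proteases and crosslinkers were higher (8.82%, against 14.2% of all genes) and 7 lower (20.6%, against 17.1%). COL1A2, a chain of type I collagen, read 4.75, 5.02 and 4.90 on the bevacizumab arrays, where it was not above background, and 6.78, 6.82 and 6.50 on the vehicle arrays, where it was detected on all 3. The arms were far apart, and COL1A2 was at least 1.92-fold lower, a bound set against the lowest signal among detected probes (limma adjusted p 0.155). Its second probe was not above background on any bevacizumab array and was detected on 2 of 3 vehicle arrays. COL3A1, the type III collagen chain, read 5.40, 5.82 and 5.27 with bevacizumab, detected on 1 of 3 arrays, and 9.20, 7.49 and 7.39 with vehicle. It had the largest fitted difference of all genes tested that were lower, at -2.53 ± 0.45 (95% interval -3.57 to -1.49, adjusted p 0.906), and vehicle 1 was the highest array. With array weights, where the bevacizumab arm rests mostly on bevacizumab 3, the limma adjusted p was 0.00587 for COL1A2 and 0.0271 for COL3A1. Without bevacizumab 1 and without weights it was 0.0801 for COL1A2 and 0.146 for COL3A1.

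The other fibrillar collagens were lower by less. COL5A1 read 10.92, 10.80 and 10.73 with bevacizumab and 11.70, 11.49 and 11.40 with vehicle. COL5A2, its partner chain in type V collagen, read 10.31, 10.70 and 10.38 with bevacizumab and 11.85, 10.94 and 11.31 with vehicle. Neither overlapped, and COL5A1 was 0.71 ± 0.19 lower and COL5A2 0.91 ± 0.27 lower. COL18A1, from which the angiogenesis inhibitor endostatin is cut, was 0.69 ± 0.20 lower without overlap. COL1A1, the other chain of type I collagen, read 10.81, 9.93 and 9.83 with bevacizumab and 11.79, 10.34 and 10.79 with vehicle. These overlapped, and the difference was -0.79 ± 0.40 (95% interval -1.71 to 0.14). Over the 25 collagen genes tested of 26 listed, 0 were higher and 5 lower without overlap (20%, against 6.03% of all genes), with a median of -0.26. COL22A1, a collagen outside this list that was named after its values were seen, lay the other way and was past the limits of the methods, with 7.30, 6.22 and 6.48 under bevacizumab and 5.28, 6.0 and 5.44 under vehicle (1.09 ± 0.32), where it was detected on 1 of 3 arrays.

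Matrix glycoproteins had the same direction. Of 49 listed, 43 were tested, and their median was -0.18. Without overlap 0 were higher (4.82% of all genes were) and 9 lower (20.9%, against 6.03% of all genes). EFEMP1, the secreted matrix protein fibulin 3, read 8.35, 8.34 and 7.38 with bevacizumab and 9.93, 9.77 and 9.0 with vehicle. NID1, nidogen of basement membranes, read 7.52, 8.19 and 7.94 with bevacizumab and 8.99, 8.76 and 9.25 with vehicle. THBS1, thrombospondin 1, an inhibitor of angiogenesis that also releases active TGF-beta, read 9.16, 10.06 and 9.18 with bevacizumab and 10.66, 10.24 and 10.53 with vehicle. None of these overlapped, and the differences were -1.54 ± 0.34 for EFEMP1, -1.12 ± 0.24 for NID1 and -1.01 ± 0.28 for THBS1. For THBS1 the gap was narrow, since bevacizumab 2 was within 0.2 of vehicle 2. DCN, the collagen-binding proteoglycan decorin, was 1.29 ± 0.31 lower in the probe used, but another probe differed by 0.55 in the other direction with overlapping arms, and its remaining 2 were not above background on any bevacizumab array and were detected on 2 and 1 vehicle arrays. FN1, fibronectin, was 0.72 ± 0.25 lower, with -0.82 at its second probe, and SPARC was 0.53 ± 0.22 lower. VCAM1, a cell adhesion molecule of the immunoglobulin family, read 6.04, 5.98 and 6.32 with bevacizumab and 8.31, 7.48 and 7.41 with vehicle (-1.62 ± 0.27, limma adjusted p 0.857), while its other 2 probes were near background, detected on 1 and 0 bevacizumab arrays and on 2 and 1 vehicle arrays.

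**Figure D3:**
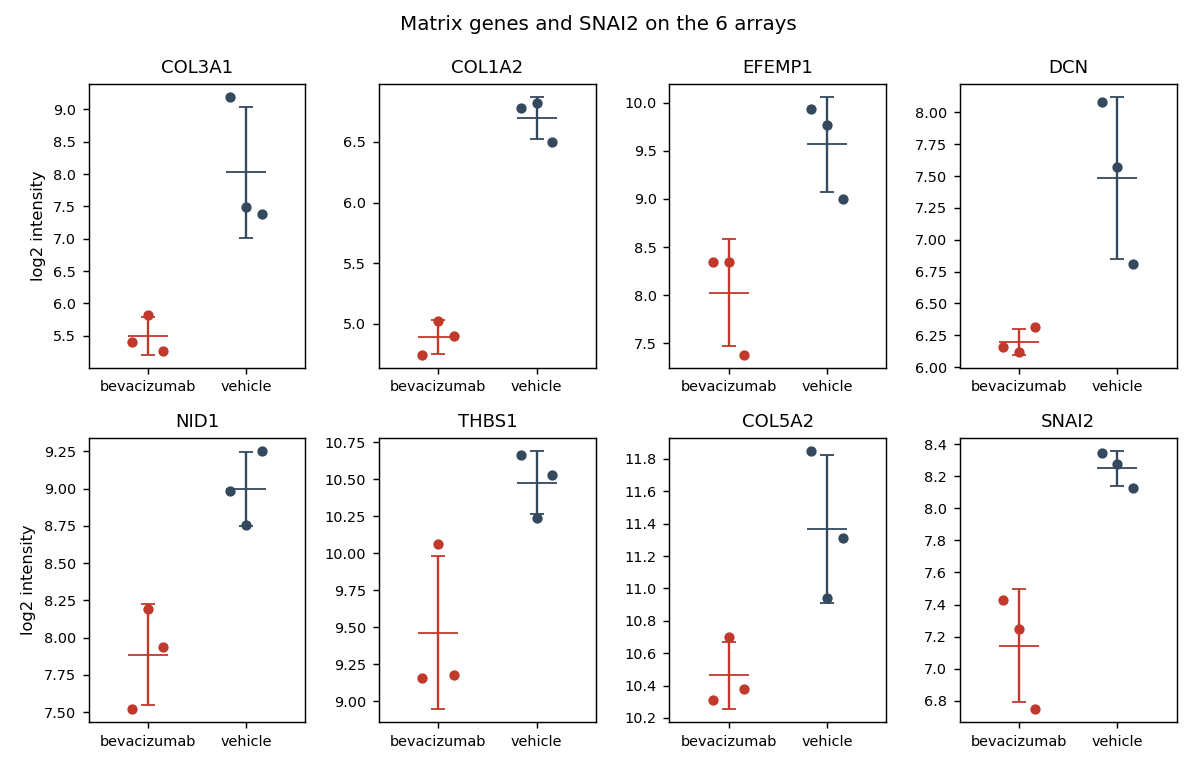
Log2 intensity of 8 genes lower on the bevacizumab arrays (left in each panel) than on the vehicle arrays (right), with 1 point per array and the mean ± SD of 3 arrays. In none of the 8 do the arms overlap, with the widest gap in COL3A1 and COL1A2 and the narrowest in THBS1.

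Fibroblast markers moved with the matrix genes, and several collagens are on both lists. Of 15 fibroblast markers 13 were tested, and the median was -0.55. Without overlap 0 were higher (4.82% of all genes were) and 4 lower (30.8%, against 6.03% of all genes). Their summed intensity was 55900, 38200 and 42400 on the bevacizumab arrays and 66000, 58500 and 47000 on the vehicle arrays, so that these sums overlapped between the arms. The 4 were COL1A2, COL3A1, DCN and PRRX1, the last a mesenchymal transcription factor (-0.89 ± 0.30, second probe -0.73). LUM, the proteoglycan lumican, differed by -0.99 with overlap, and FBLN1, fibulin 1, by 0.88 in the other direction with overlap. THY1 and DPT were not detected on any array. The fibroblasts of a xenograft are mouse cells and the probes are human, so these markers may read the A375 cells, mouse fibroblasts or both. Which cells gave the signal was not tested, nor how far these human probes read mouse transcripts. In bulk tumours fewer cells of a type and less RNA per cell cannot be told apart. Without bevacizumab 1 the fibroblast median was -0.52 and 7 of 13 markers were lower without overlap (53.8%), as were 13 of 25 collagens (52%) and 13 of 43 matrix glycoproteins (30.2%), where 17.1% of all genes were.

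Compared with PLX4720 the matrix genes were lower as well. At an adjusted p below 0.05 (limma, all 11 arrays), 9 of 25 collagens, 11 of 43 matrix glycoproteins and 6 of 13 fibroblast markers were lower in bevacizumab tumours (2.08% of all genes were) and 0 were higher (1.04%). The medians were -0.93 for collagens, -0.78 for matrix glycoproteins and -1.70 for fibroblast markers. COL3A1 averaged 5.50 under bevacizumab and 13.03 under PLX4720.

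Genes of TGF-beta signalling, which drives matrix production in many cells, had a median of -0.30 over 20 of 26 listed genes tested, with 0 higher and 4 lower without overlap (20%, against 6.03% of all genes). TGFB3, a ligand, read 6.16, 5.45 and 5.97 with bevacizumab and 7.25, 6.91 and 6.46 with vehicle. The arms did not overlap, and TGFB3 was 1.01 ± 0.28 lower. The co-receptor TGFBR3 was lower by 0.66, the BMP antagonist GREM1 by 0.53 and the feedback inhibitor PMEPA1 by 0.48. TGFB1 was near background in both arms, detected on 0 bevacizumab arrays and 1 vehicle array, and its arms overlapped. Bevacizumab 1 was the closest to vehicle on this list, with an array median of -0.08 that lay inside the range of the vehicle arrays, and without it 8 of the 20 genes were lower without overlap (40%), where 17.1% of all genes were. SNAI2, a transcription factor of the mesenchymal state and of the neural crest, read 7.43, 7.25 and 6.75 with bevacizumab and 8.34, 8.28 and 8.13 with vehicle. Its arms were separated, and it was 1.11 ± 0.23 lower (limma adjusted p 0.947), with -0.80 at a second probe.

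Other genes past the limits of the methods in the lower direction belonged to no single list. RGS4, which shortens G protein signals, read 8.86, 9.36 and 8.96 with bevacizumab and 10.17, 10.24 and 9.99 with vehicle (-1.08 ± 0.21). CASP8, the initiator caspase of death receptors, read 5.23, 6.83 and 5.88 with bevacizumab and 7.05, 7.51 and 7.16 with vehicle, a difference of -1.26, with -0.58 at a second probe. Both were separated, CASP8 narrowly at bevacizumab 2. PLCD4 and PPP2R5C were not above background on any bevacizumab array, and PLCD4 was at least 1.87-fold and PPP2R5C at least 1.44-fold lower. The probe used for LOC646938 was likewise not above background there and was at least 2.23-fold lower (limma adjusted p 0.453), but the second probe of LOC646938 was detected on 1 bevacizumab array and differed by -0.49. The citrate cycle acid transporter SLC13A3 was 1.14 lower at the probe used and differed by 0.25 in the other direction at a second, and the lipid phosphatase MTMR1 was 1.3 lower and differed by -0.34 at a second. PROX1, a transcription factor of lymphatic endothelium, was 1.16 lower. At the probes used, PROX1 and SLC13A3 were detected on 1 of 3 bevacizumab arrays, and MTMR1 and CASP8 on 2 of 3.

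The genes that were higher with bevacizumab were of varied kinds. CT55, a cancer-testis antigen, meaning a gene whose expression in normal tissue is largely confined to the germ line, had the largest positive difference of all genes tested. It read 8.55, 9.27 and 9.78 with bevacizumab and 7.60, 6.48 and 6.85 with vehicle. The arms did not overlap, with bevacizumab 1 nearest to vehicle, and CT55 was 2.22 ± 0.38 higher (95% interval 1.36 to 3.08, limma adjusted p 0.857), with 1.48 at a second probe, while the third was detected on 1 bevacizumab array and 0 vehicle arrays. KRT79, an epithelial keratin, read 8.21, 7.33 and 7.49 with bevacizumab and 5.56, 6.24 and 5.64 with vehicle, where it was detected on 1 of 3 arrays. It was 1.87 ± 0.30 higher (adjusted p 0.857). The 4 epidermal markers tested of 14 had a median of -0.05, with sums of 5600 to 6070 on the bevacizumab arrays and 7240 to 7990 on the vehicle arrays, in which KRT10 was the brightest (-0.38), and their part in the result was not tested. With array weights, where the bevacizumab arm rests mostly on bevacizumab 3, the limma adjusted p was 0.0214 for CT55 and 0.0224 for KRT79. Without bevacizumab 1 and without weights it was 0.083 for each.

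Of 30 cancer-testis antigens tested, 5 were higher without overlap (16.7%, against 4.82% of all genes) and 1 was lower, with a median of 0.22. Beside CT55 these were SSX1 (0.98), CT45A5 (0.46), CT45A1 (0.29) and PRAME (0.10), and the lower one was MAGEA2 (-0.37). The CT45 genes are near-identical copies, so their probes may not tell them apart. SSX1 read 7.26, 7.05 and 7.98 with bevacizumab and 6.89, 5.59 and 6.86 with vehicle, a gap of less than 0.2 between the nearest arrays. The second probe of SSX1 lay the other way, not above background on any bevacizumab array and detected on all 3 vehicle arrays. Without bevacizumab 1 the counts were again 5 higher and 1 lower, with 14.2% of all genes higher.

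Single genes past the limits included neuronal, secreted and lymphocyte genes. LRFN5, a synaptic adhesion protein, read 7.48, 8.10 and 7.79 with bevacizumab and 6.42, 6.85 and 6.05 with vehicle (1.36 ± 0.27). VSTM1, a receptor of the immunoglobulin family, read 9.49, 9.56 and 9.64 with bevacizumab and 8.43, 7.45 and 8.78 with vehicle (1.35 ± 0.33). The bevacizumab arrays of VSTM1 agreed closely while the vehicle arrays were spread. OBP2A, an odorant-binding lipocalin, read 7.72, 7.17 and 7.0 with bevacizumab and 6.19, 6.08 and 5.90 with vehicle (1.24 ± 0.24), and LCN1, another lipocalin, was 1.76 ± 0.46 higher. TIGIT, an inhibitory receptor of lymphocytes, read 6.36, 6.78 and 6.80 with bevacizumab and 5.74, 5.19 and 5.41 with vehicle. Its arms did not overlap (1.2 ± 0.23), but its second probe was detected on 1 bevacizumab array and 0 vehicle arrays, and the leukocyte markers PTPRC, CD3E, CD4 and CD8A were not detected on any array. PTPRR, a phosphatase that acts on MAP kinases, was 1.06 higher at 1 probe and differed by -0.07 at another. ADAM12 was not above background on the vehicle arrays and was at least 1.57-fold higher. NPPB (1.53), PLEK2 (1.42), DLGAP1-AS5 (1.26), the fetal globin HBG2 (1.08) and the histone gene H2BC6 (1.08) were also past the limits. The 3 red cell markers tested, read beside HBG2, summed to 1670 to 5550 with bevacizumab and 1330 to 5620 with vehicle.

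**Figure D4:**
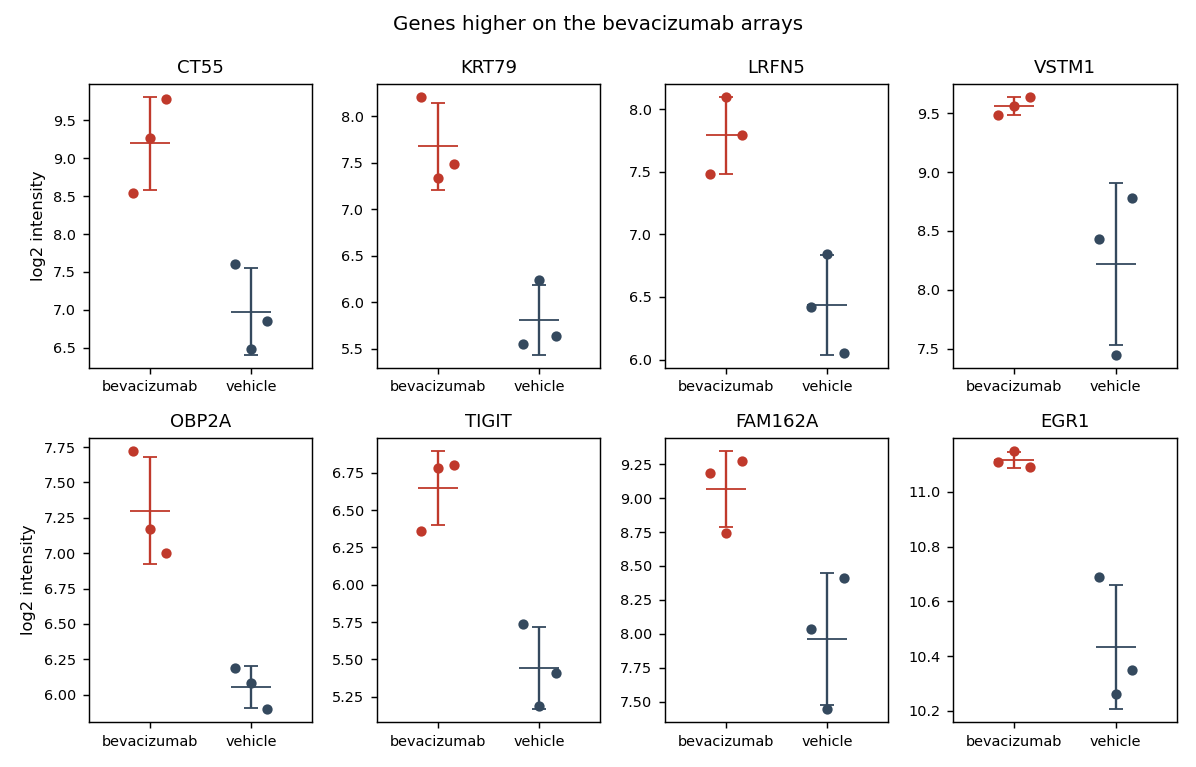
Log2 intensity of 8 genes higher on the bevacizumab arrays (left in each panel) than on the vehicle arrays (right), with 1 point per array and the mean ± SD of 3 arrays. No arm overlaps the other in these 8 genes, and the bevacizumab arrays of VSTM1 and EGR1 lie close together.

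Cytokine and NF-kB lists had more genes higher than lower. Of 37 cytokines and chemokines 5 were higher (13.5%) and 2 lower (5.41%) without overlap, with a median of 0.14, and of 26 NF-kB targets 5 were higher (19.2%) and 1 lower (3.85%), with a median of 0.12, where 4.82% of all genes were higher and 6.03% lower. IL32, a cytokine of inflamed tissue, read 8.19, 8.07 and 7.88 with bevacizumab and 7.25, 7.15 and 7.48 with vehicle. It was separated and 0.76 ± 0.20 higher, under the size limit, while the arms overlapped at its second probe, which was detected on 1 bevacizumab array and 2 vehicle arrays. TSLP (0.59), LTB (0.59), CCL28 (0.55), CCL20 (0.47) and IRF1 (0.40) had the same direction without overlap. The lower NF-kB target was VCAM1 (-1.62), the single member of that list past the limits of the methods. Without bevacizumab 1, 19.2% of NF-kB targets were higher and 7.69% lower, with a median of 0.03. The cytokine shares were then 27% and 5.41%, and those of all genes 14.2% and 17.1%. The 46 interferon-stimulated genes had a median of 0.08 with 2 higher and 2 lower, and 24 antigen presentation genes a median of 0.10 with 1 higher and 0 lower. Against PLX4720, 22 of the 46 interferon-stimulated genes were lower in bevacizumab tumours and 0 higher (2.08% lower and 1.04% higher over all genes), with a median of -1.71.

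Genes of growth signalling and of the cell cycle had list medians near that of all genes. The 35 genes read as ERK output had a median of 0.04. Of them 3 were higher and 2 lower without overlap (8.57% and 5.71%, against 4.82% and 6.03% of all genes). DUSP6, an ERK phosphatase that ERK itself induces, read 12.13, 12.15 and 12.14 with bevacizumab and 12.14, 11.82 and 12.14 with vehicle, while EGR1, an immediate early gene, read 11.11, 11.15 and 11.09 with bevacizumab and 10.69, 10.26 and 10.35 with vehicle. DUSP6 overlapped (0.11, 95% interval -0.33 to 0.54) and EGR1 did not (0.68 ± 0.20). Of 34 DNA replication genes 3 were higher and 2 lower (median 0.07), and of 33 mitosis genes 3 were higher and 1 lower (median -0.05). MKI67, a marker of dividing cells, differed by -0.26 with a wide interval of -1.38 to 0.87, and bevacizumab 1 read 5.28 and the other bevacizumab arrays 6.83 and 6.97. CCND1, cyclin D1, differed by -0.36 (-0.98 to 0.26).

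Several stress and developmental lists leaned lower, but not all stress lists did. Over all genes 4.82% were higher and 6.03% lower without overlap. NRF2 targets had 0 of 16 genes higher and 4 lower (25%), with a median of -0.13. Among them GCLM, of glutathione synthesis, was 0.53 ± 0.19 lower at 1 probe and differed by 0.01 at another, and NQO1 was 0.40 lower. Notch and Wnt targets had 0 of 18 higher and 4 lower, with a median of -0.15, led by the secreted Wnt inhibitor DKK1, which was 0.69 ± 0.23 lower, with 11.40, 11.16 and 11.26 under bevacizumab and 12.15, 12.22 and 11.54 under vehicle. Genes of the unfolded protein response (0 of 18 higher and 3 lower, median -0.15) and heat shock proteins (0 of 14 higher and 3 lower, median -0.22) had the same direction. For heat shock proteins the array medians were -0.36 on bevacizumab 1 and -0.02 and -0.10 on bevacizumab 2 and 3. CRYAB of that list differed by 0.78 in the other direction with overlap. Of 26 receptor tyrosine kinases 0 were higher and 3 lower, among them IGF1R (-0.81 ± 0.27) and the collagen receptor DDR2 (-0.72 ± 0.23). Of 25 genes of the dedifferentiated melanoma state 1 was higher and 4 lower (median -0.20). Without bevacizumab 1 the medians were -0.15 for NRF2 targets, -0.16 for Notch and Wnt targets and -0.17 for the unfolded protein response. They were -0.04 for heat shock proteins and -0.11 for the dedifferentiated state. On the 6 arrays, the integrated stress response had 2 of 24 higher and 0 lower. Targets of p53 had 1 of 16 higher and 0 lower, apoptosis regulators 1 of 26 each way, and autophagy genes 0 of 24 higher and 1 lower. In the pigmentation list OCA2, a melanosome channel, was 0.85 ± 0.26 higher and GPNMB, a melanosome glycoprotein, 0.67 ± 0.23 lower.

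Markers of vessel and blood cells gave few separated genes on the 6 arrays, where 4.82% of all genes were higher and 6.03% lower without overlap. The 11 endothelial markers tested of 19 had a median of -0.11, with 0 higher and 0 lower without overlap, and summed to 2270 to 3370 on the bevacizumab arrays and 2770 to 3050 on the vehicle arrays. CDH5, VWF, KDR and FLT1, which define endothelium, were not detected on any array. The 10 pericyte and smooth muscle markers tested of 13 had a median of -0.03, with 1 higher and 1 lower, and sums of 5360 to 7820 with bevacizumab and 6630 to 7170 with vehicle. Without bevacizumab 1 their median was -0.22, with 1 higher and 4 lower (40%, against 17.1% of all genes). In that setting endothelial markers had 1 higher and 2 lower, and leukocyte markers 1 higher and 1 lower. The 13 leukocyte markers tested of 21 had a median of -0.04, with 0 higher and 1 lower, and sums of 6940 to 9310 with bevacizumab and 7050 to 7680 with vehicle. Ribosomal protein genes had a median of -0.04 over 35 tested and housekeeping genes a median of -0.05 over 12.

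**Figure D5:**
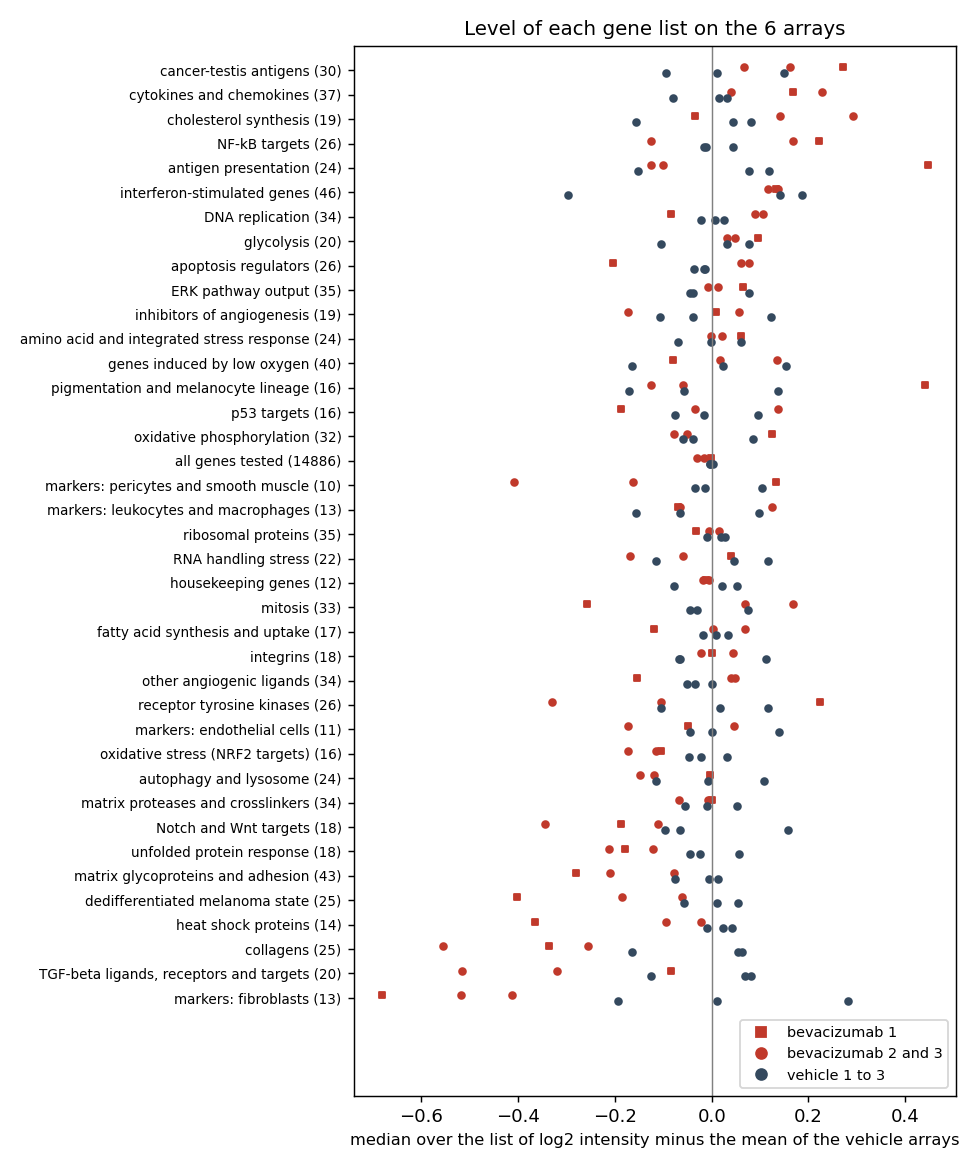
For each list with at least 10 genes tested (number in brackets), the median over its genes of log2 intensity minus the mean of the vehicle arrays, with 1 point per array and bevacizumab 1 drawn as a square. The fibroblast markers and collagens have all 3 bevacizumab points below the vehicle points. So have matrix glycoproteins, NRF2 targets, Notch and Wnt targets, the unfolded protein response, heat shock proteins and the dedifferentiated state, some by narrow gaps. Cytokines and chemokines have all 3 above, while the low-oxygen list straddles 0.

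The genes in which bevacizumab 1 stood farthest from the other bevacizumab arrays belonged to no single list. SNORD13, a small nucleolar RNA, read 9.53 on bevacizumab 1 against 7.5 and 5.57 on bevacizumab 2 and 3, and RNU4-1, RNU4-2 and TERC, all noncoding RNAs, were among the 10 genes highest on it. CD24, a surface glycoprotein, was the farthest in the lower direction, with 5.24 against 7.98 and 8.01. Genes of RNA handling stress had array medians of 0.04, -0.17 and -0.06 with bevacizumab and 0.05, 0.12 and -0.11 with vehicle, so bevacizumab 1 lay within the range of the other arrays. The part that the state of this array plays in the differences above was not tested beyond the values given without it.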

How the data were processed

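The authors read 11 HumanHT-12 v4 arrays with GenomeStudio (2011.01 in the submitters' processing notes) and deposited, per probe and array, a non-normalized intensity and a detection p-value. Their normalized values, deposited on a linear intensity scale with a floor of 1, served as an alternative. Intensities were background-corrected (normexp with detection p-values, offset 16), quantile normalized over 11 arrays and taken to log2 with limma 3.58.1 in R 4.3.3. The platform's annotation table paired 30113 of 47323 probes with 1 symbol, 8 with several and 17202 with none. Probes detected (p below 0.05) on at least 1 array were kept (20638 with 1 symbol), and the brightest per gene gave 14886 of 20046 genes. Bevacizumab and vehicle were fitted on their 6 arrays with lmFit and eBayes, two-sided, with Benjamini-Hochberg adjustment over all genes; the comparison with PLX4720 and the interaction used 11 arrays. The methods call the replicates biological; p-values measure the spread between these samples, and their number limits the precision. A gene below background on all arrays of an arm has a bound, the other arm's mean over the lowest detected signal. Members and lists were chosen with earlier results of these data known. Named were the 10 genes of each direction with the smallest p past the methods' limits, up to 4 members per list, members with the largest differences and a fixed set of VEGF, low-oxygen and lineage genes; others were named after their values were seen. Lists were described by counts and medians, with no set test. Alternatives were other background, scaling, filters, probes, fits, array weights and arrays left out; the intervals per gene, the interaction under these alternatives and the list counts without bevacizumab 1 were added after seeing the data. The steps were tested on simulated data. Arrays of mouse transcripts were not analysed here.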

Additional observations from a re-analysis of the deposited data

Results flagged for a closer look

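IPO7, which encodes a nuclear import receptor, was the single gene of all tested whose difference between bevacizumab and its control was another in the presence of PLX4720, by a direct test of that difference. IPO7 read 8.77, 9.21 and 8.71 with bevacizumab and 9.46, 9.68 and 9.92 with vehicle, a difference of -0.79. With PLX4720 in both arms it read 9.58 and 9.38 with bevacizumab added and 7.11, 6.97 and 6.27 without, a difference of 2.7. The interaction was 3.49 on the log2 scale (limma adjusted p 0.0398, all 11 arrays in 1 fit). The call was lost with no detection filter (0.0566), with the replicate block (0.356) and without any of the 6 bevacizumab or vehicle arrays (0.0753 to 0.235), and over all alternatives the adjusted p ranged between 0.01 and 0.356. No cause was tested.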

How the results depend on the processing

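With 3 arrays an arm, the median SE of a difference was 0.245, and dim genes give bounds only: 872 genes were below background on all bevacizumab arrays but not on all vehicle arrays, and 725 the other way round. The count of genes called between bevacizumab and vehicle was 0 under each alternative run except array weights, which gave 304; it was also 0 with the replicate block, which had 67 genes past the limits of the methods. Deviations of arrays with the same number correlated at 0.162, -0.0364 and 0.156, and those of arrays with different numbers at -0.206 to 0.157. Whether arrays with the same number are paired was not tested. The count past those limits, 46 as reported, was 27 in the fit of all 11 arrays, 4 on the authors' normalized values, 6 with no background correction, 18 with an offset of 50, 83 with median scaling and 267 with array weights, and lay between 45 and 208 with 1 array left out, highest without bevacizumab 1 and next without bevacizumab 2 (86). Median scaling moved the median of all genes to -0.123 and the split to 13 higher and 70 lower, against 21 and 25. It moved the genes that did not overlap to 344 higher and 1708 lower (2052, against 1614), and leaving out 1 array gave 2523 to 4654. With fewer arrays, separation by chance is also more frequent. Against PLX4720, 465 genes were called as reported, 70 with 6 arrays in the fit, 64 with background correction and normalization on those 6, 300 with the replicate block and 128 to 992 with 1 array left out. The interaction had 1 gene as reported and 0 with no detection filter, with the replicate block and with any array of either arm left out. Most of the 221 named genes kept their direction under all alternatives run. So did 18 of 44 lists, among them fibroblast markers, collagens, matrix glycoproteins, TGF-beta genes and cancer-testis antigens. The cause of these moves was not tested.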
